A study of Mus musculus with 3 samples.

Results

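The genes described here give neurons the means to make, store, take up and break down serotonin and the catecholamines. They are *Tph2*, *Slc6a4*, *Fev*, *Lmx1b*, *Slc18a2*, *Ddc*, *Th*, *Slc6a2* and *Maoa*, and they were found on the arrays as the 12 probes that carry a RefSeq transcript of one of these 9 genes, out of 26576 probes for 20141 named genes. The set was chosen on the basis of measured values, because *Tph2* was selected from the genes lowest in MGE-GFP+ relative to ES-GFP+ cells, so the values of that contrast describe the selection and support nothing further. There were 3 sorted populations, with 1 array each. ES-GFP+ and ES-GFP- cells were the *Lhx6*-GFP positive and negative cells of embryoid body (EB) aggregates at day 12 of differentiation, and MGE-GFP+ cells were the *Lhx6*-GFP positive cells of the medial ganglionic eminence (MGE) of embryos at embryonic day 12.5 (E12.5). Both ES populations came from J14 cells, a single male line of the strain 129S4/SvJae that carries the *Lhx6*-GFP BAC transgene and, by its label, an enhancer-reporter virus for mCherry. They had been aggregated in Dkk-1, an inhibitor of Wnt signaling, at 100 ng/ml, and exposed to SAG, an agonist of hedgehog signaling, at 6 nM from day 3. The embryos carried the same BAC on a CD1 background, received no treatment and were labeled female, and the number pooled is not given in the sources used here. GFP marks cells in which the *Lhx6* BAC is active, so the GFP- cells are all the other live cells of the aggregates rather than a defined cell type. The comparisons bear on how ES-derived *Lhx6*-GFP+ cells differ from their GFP- neighbors and from their counterparts in the embryo.

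Serotonin neurons arise in the ventral hindbrain, and their axons reach the forebrain from the raphe nuclei. They make serotonin from tryptophan with *Tph2* and *Ddc*, load it into vesicles with *Slc18a2*, take it back up with *Slc6a4*, and degrade it with the monoamine oxidases. The transcription factors *Gata2*, *Gata3*, *Lmx1b* and *Fev* (also called Pet1) turn these genes on as the neurons leave the cell cycle. Dopamine and noradrenaline neurons share *Ddc*, *Slc18a2* and *Maoa*, start instead from tyrosine with *Th*, and use transporters of their own, of which *Slc6a2* is that of noradrenaline. The MGE itself gives rise to GABAergic interneurons and projection neurons of the forebrain, not to serotonin neurons.

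Each value below is a background-subtracted spot intensity in arbitrary units, or its log2 level relative to the 75th percentile of the array. With 1 array per population there was no test and no SD between replicates. The only error at hand was the spread of repeat spots within an array, whose SD was 0.139 on the ES-GFP+, 0.141 on the ES-GFP- and 0.144 on the MGE-GFP+ array in log2 units. A difference beyond 2 SDs of this kind, a fold of 1.32 in each comparison, is described as larger than the repeat-spot spread. Differences between sorts, cultures, litters or RNA amplifications are not part of that spread. All 3 arrays were on 1 slide. The ES-GFP+ array stood apart at low intensities. Of 106 control probes with no mouse target (adenovirus E1A and ERCC sequences), 86 were well above background on the ES-GFP+ array, against 35 on the ES-GFP- and 34 on the MGE-GFP+ array, and their 95th percentile was 378, 209 and 153 in the same order. The part of this in the results was not tested, and a probe at or below that percentile is described as within the range of the control probes. *Nkx2-1*, *Lhx8* and the other 7 MGE markers examined were above that range on all 3 arrays, with 7 of 9 at least 4-fold higher in MGE-GFP+ than in ES-GFP- cells, where 1.7% of all genes were.

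The labels of sex did not all hold. *Xist*, the RNA of the inactive X chromosome, had a mean intensity of 12437 on the MGE-GFP+ array against 23.0 on the ES-GFP+ and 19.9 on the ES-GFP- array. The Y-linked genes *Ddx3y* and *Kdm5d* also had signal on the array labeled female, at 195 and 254, while neither was well above background on the 2 arrays labeled male. *Eif2s3y*, also Y-linked, was well above background on all 3 arrays, at 388 in ES-GFP-, 331 in ES-GFP+ and 591 in MGE-GFP+ cells. *Maoa* and *Maob* are X-linked, and the part of sex in their values was not tested. Strain, sex and origin cannot be told apart between the MGE-GFP+ and the ES-derived cells.

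The genes that define serotonin neurons were highest in the ES-GFP- cells and lowest in the MGE-GFP+ cells. *Tph2*, which catalyzes the first and rate-limiting step of serotonin synthesis in neurons, had an intensity of 1876 in ES-GFP-, 786 in ES-GFP+ and 16.6 in MGE-GFP+ cells. It was thus clearly above the control probes in both ES populations and within their range in the MGE-GFP+ cells. Its level was 2.12-fold lower in ES-GFP+ than in ES-GFP- cells. It was 36.4-fold lower in MGE-GFP+ than in ES-GFP+ cells, the difference on which it was selected, and 77.0-fold lower than in ES-GFP- cells. All 3 steps were larger than the repeat-spot spread.

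*Slc6a4*, the serotonin transporter, had an intensity of 6037 in ES-GFP- cells, 1119 in ES-GFP+ cells and 5.74 in MGE-GFP+ cells, where the probe was not well above background. The transporter was therefore measured in both ES populations, with the GFP- cells the higher. The ES-GFP+ level was 4.78-fold below that of ES-GFP- cells. Against the lowest measurable level of the MGE-GFP+ array, the transporter was at least 71.2-fold higher in ES-GFP+ and at least 341-fold higher in ES-GFP- cells. *Fev*, an ETS-domain transcription factor that within the brain is largely restricted to serotonin neurons, had intensities of 6846, 1021 and 52.9 in ES-GFP-, ES-GFP+ and MGE-GFP+ cells. The order was that of *Slc6a4*, and the MGE-GFP+ value lay within the range of the control probes. The level of *Fev* was 5.94-fold lower in ES-GFP+ than in ES-GFP- cells. From the ES-GFP+ to the MGE-GFP+ array it was a further 14.8-fold lower. These arrays measured RNA of sorted populations in bulk, so fewer cells of a type and less RNA per cell cannot be told apart.

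The size of these low-end differences depended on the treatment of background. In the log2 values that the authors deposited, which carry no background subtraction, *Tph2* was 10.2-fold, *Slc6a4* at least 18.7-fold and *Fev* 7.50-fold lower in MGE-GFP+ than in ES-GFP+ cells. The same values gave 1.88-fold, 4.08-fold and 5.45-fold between ES-GFP+ and ES-GFP- cells, closer to those of the scanner intensities.

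**Figure D1:**
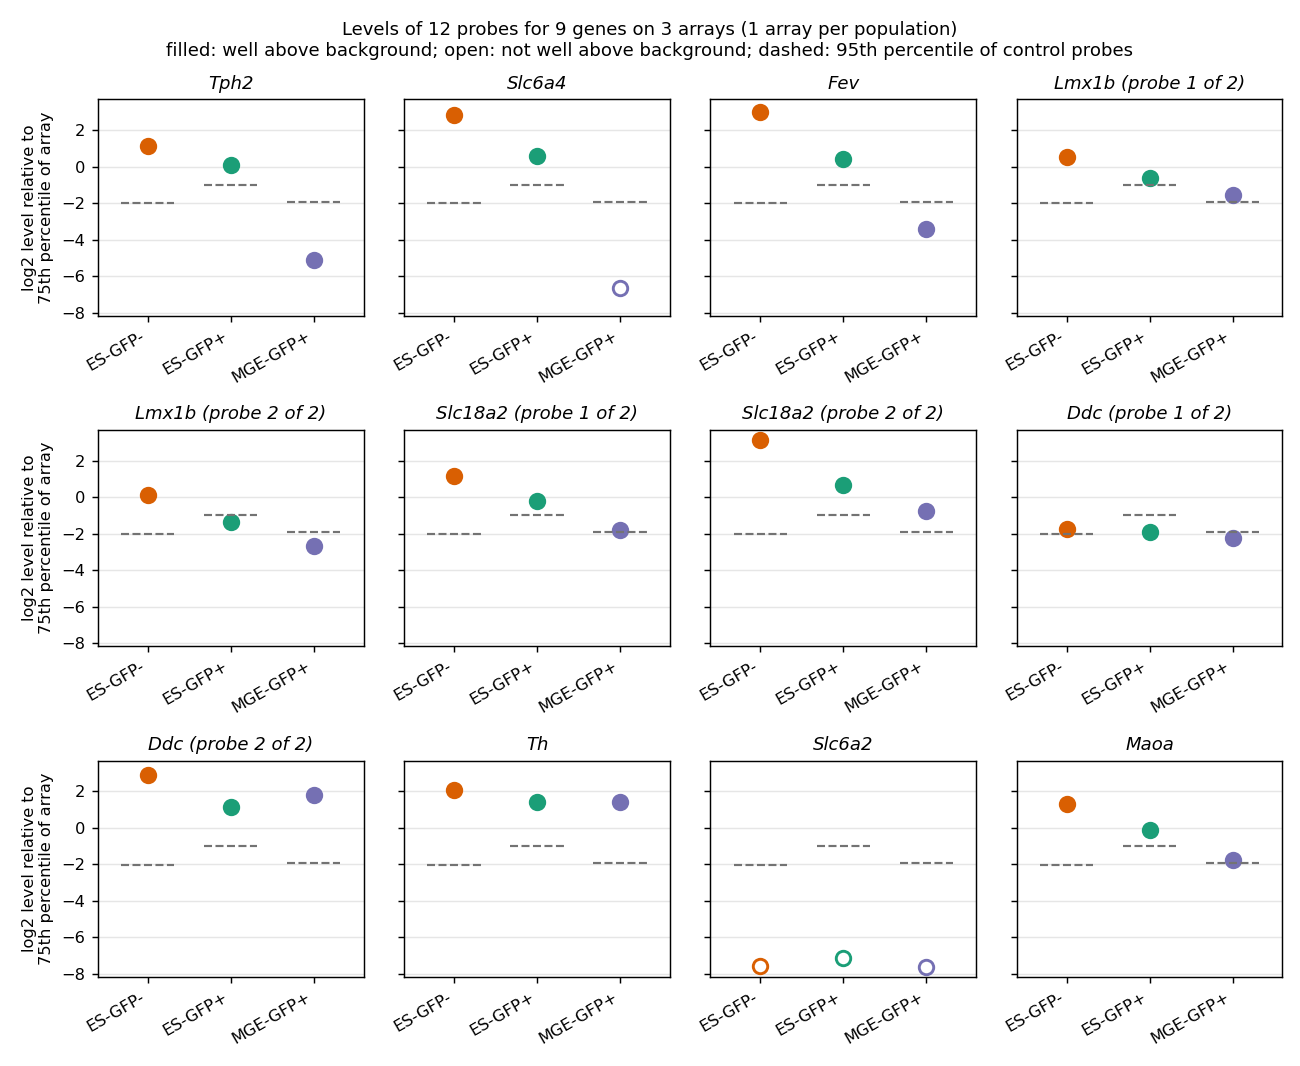
Log2 level of each of the 12 member probes relative to the 75th percentile of the array (vertical axis) in ES-GFP-, ES-GFP+ and MGE-GFP+ cells, 1 array each. Filled points were well above background, open points were not, and dashed lines give the 95th percentile of the control probes. *Tph2*, *Slc6a4* and *Fev* lie above that line in both ES populations and below it in MGE-GFP+ cells, while *Slc6a2* lies below it on all 3 arrays.

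The promoters of the members that stepped down most from ES-GFP- to MGE-GFP+ cells are shown because 2 GATA factors of the serotonin lineage followed the same order (given further on). The 250 bases before the annotated start were read from RefSeq (GRCm38.p6), where 8 of the 9 members matched, with 9 windows. The usual GATA-factor motif was searched on both strands, spelled AGATAA with either A or G as its last letter (AGATAG) and with either A or T as its first letter (TGATAA when T comes first, TGATAG when both are changed), and its matches stand in capitals below. Matches occurred in 5 of the 9 windows, upstream of 5 of the 8 members, and in 26.5% of 32851 windows of the same length. There was none in the windows of *Lmx1b*, *Ddc* and *Th*. The motif was picked after the order of the GATA factors on these arrays was seen. The members were also chosen on values of these arrays, so this count supports nothing further. The letters CCGGAA, the core of many ETS-factor motifs, occurred in 0 of the 9 windows and in 12.0% of all windows. A match is a description of the sequence and does not show binding, and no match says only that these letters are not in the window. The windows are chr10:115185023-115185272 on the minus strand for *Tph2*, chr11:76998347-76998596 on the plus strand for *Slc6a4*, chr1:74885409-74885658 on the minus strand for *Fev*, chr19:59260628-59260877 on the plus strand for *Slc18a2* and chrX:16619448-16619697 on the plus strand for *Maoa*, each written 5′ to 3′ along the gene.
*Tph2*: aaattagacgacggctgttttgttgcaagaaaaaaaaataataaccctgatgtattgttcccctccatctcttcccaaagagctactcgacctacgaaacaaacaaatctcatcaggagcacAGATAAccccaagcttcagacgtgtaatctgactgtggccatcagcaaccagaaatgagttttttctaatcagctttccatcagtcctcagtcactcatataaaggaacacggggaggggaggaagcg
*Slc6a4*: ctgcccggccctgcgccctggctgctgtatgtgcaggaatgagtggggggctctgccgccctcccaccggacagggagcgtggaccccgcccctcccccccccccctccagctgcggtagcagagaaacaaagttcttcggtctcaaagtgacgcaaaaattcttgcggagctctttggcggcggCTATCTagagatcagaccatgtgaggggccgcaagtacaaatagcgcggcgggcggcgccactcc
*Fev*: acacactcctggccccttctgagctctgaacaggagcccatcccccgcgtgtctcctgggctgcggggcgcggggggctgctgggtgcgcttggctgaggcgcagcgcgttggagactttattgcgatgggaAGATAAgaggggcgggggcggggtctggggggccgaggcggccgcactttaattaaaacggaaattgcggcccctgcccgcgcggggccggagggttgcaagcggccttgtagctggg
*Slc18a2*: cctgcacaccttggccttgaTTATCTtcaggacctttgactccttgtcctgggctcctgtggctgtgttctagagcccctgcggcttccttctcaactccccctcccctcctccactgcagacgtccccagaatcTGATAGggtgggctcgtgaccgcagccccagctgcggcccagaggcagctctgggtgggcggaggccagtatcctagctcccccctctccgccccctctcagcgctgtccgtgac
*Maoa*: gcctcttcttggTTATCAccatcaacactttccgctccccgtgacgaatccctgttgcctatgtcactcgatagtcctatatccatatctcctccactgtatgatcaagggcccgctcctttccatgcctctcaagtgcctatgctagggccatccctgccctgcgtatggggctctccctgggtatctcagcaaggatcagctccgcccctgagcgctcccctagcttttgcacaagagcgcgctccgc

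**Figure D2:**
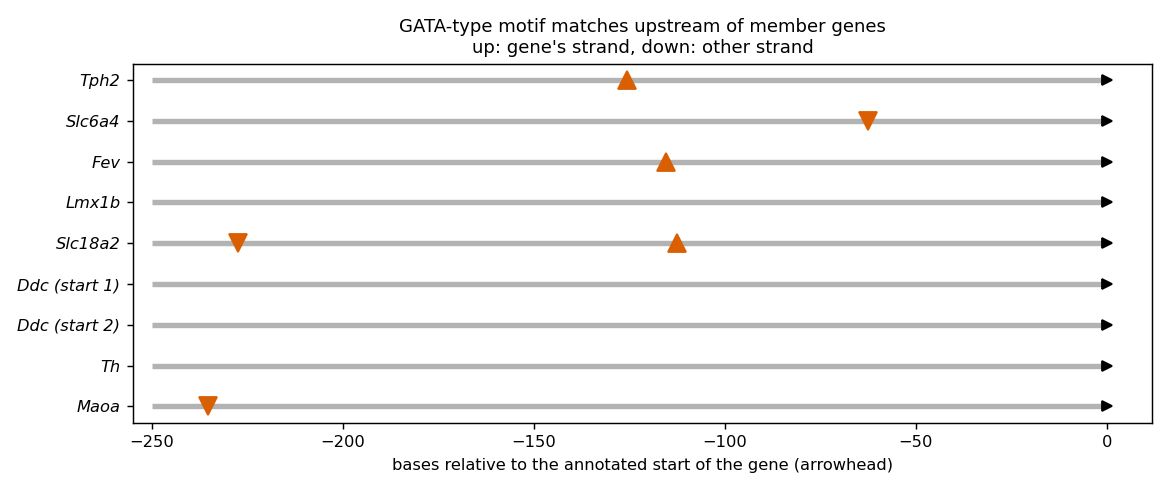
Position of the GATA-type motif (triangles, pointing up on the gene's strand and down on the other) in the 250 bases before the annotated start of each member with a RefSeq window, in bases from the start. Of the 9 windows, 5 hold a match, and the window of *Slc18a2* holds 2.

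The match of *Slc6a4* was the nearest to its start, at 60 to 65 bases, on the other strand. Those of *Fev*, at 113 to 118 bases, and of *Tph2*, at 123 to 128 bases, were both AGATAA on the gene's own strand. The windows differed in base composition, with 43.6% G and C in *Tph2* and 68.0% in *Fev*.

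*Lmx1b*, *Slc18a2* and *Maoa* had the same order of levels as the serotonin-specific genes, with smaller steps into the MGE-GFP+ cells. *Lmx1b*, a LIM-homeodomain factor needed for serotonin neurons and also present in midbrain dopamine neurons, was measured by 2 probes. One read 1203 in ES-GFP-, 495 in ES-GFP+ and 196 in MGE-GFP+ cells, and the other 936, 291 and 91.4. Both probes put ES-GFP- cells highest, but the second was within the range of the control probes in the 2 GFP+ populations. As the mean of both probes, *Lmx1b* was 2.48-fold lower in ES-GFP+ than in ES-GFP- cells. It was another 2.18-fold lower in the MGE-GFP+ population. With the deposited values this last step was 1.47-fold. Its log2 difference ran from -1.13 to -0.38 over the settings tried, which reaches into the repeat-spot spread.

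*Slc18a2*, the vesicular monoamine transporter of neurons, also had 2 probes. The brighter read 7488, 1204 and 346 in ES-GFP-, ES-GFP+ and MGE-GFP+ cells, and the dimmer 1916, 644 and 167. All 6 values exceeded the control probes of their array, so the transporter was detectable in the MGE-GFP+ cells. The probes gave a 5.52-fold and a 2.64-fold difference between ES-GFP- and ES-GFP+ cells, with ES-GFP- the higher on both. Their mean was 3.81-fold, and MGE-GFP+ cells were a further 2.81-fold lower. *Maoa*, which oxidizes serotonin and noradrenaline on the outer mitochondrial membrane, had intensities of 2081 in ES-GFP-, 681 in ES-GFP+ and 170 in MGE-GFP+ cells. Each value was above the control probes of its array, and no population overlapped another within the repeat-spot spread. The differences were 2.71-fold between ES-GFP+ and ES-GFP- cells and 3.08-fold between MGE-GFP+ and ES-GFP+ cells.

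*Ddc*, *Th* and *Slc6a2* did not follow this order. *Ddc*, the decarboxylase that completes both serotonin and dopamine synthesis, had 2 probes for different RefSeq transcripts, and these disagreed. The probe for NM_001190448 read 6308 in ES-GFP-, 1640 in ES-GFP+ and 1990 in MGE-GFP+ cells. The MGE-GFP+ cells were here 1.58-fold above the ES-GFP+ cells. The probe for NM_016672 read 257, 202 and 120 in the same order, with only the ES-GFP- value above the control probes, and put the MGE-GFP+ cells 1.29-fold below the ES-GFP+ cells, which was within the repeat-spot spread and became 1.11-fold above with the deposited values. Averaged over both, *Ddc* was 1.96-fold lower in ES-GFP+ than in ES-GFP- cells, and the log2 difference of 0.14 between MGE-GFP+ and ES-GFP+ cells was within that spread.

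*Th*, the rate-limiting enzyme of catecholamine synthesis, had intensities of 3494 in ES-GFP-, 1967 in ES-GFP+ and 1554 in MGE-GFP+ cells. It was well above the control probes in all 3 populations. It was 1.58-fold lower in ES-GFP+ than in ES-GFP- cells. Between MGE-GFP+ and ES-GFP+ cells the log2 difference was 0.04 and within the repeat-spot spread, and it ranged from -0.23 to 0.78 over the scalings and other settings tried, so that its sign depended on the setting. *Slc6a2*, the noradrenaline transporter, read 4.46, 5.32 and 2.90 in ES-GFP-, ES-GFP+ and MGE-GFP+ cells. It was not well above background on any array, and no fold was formed.

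Set beside all genes, the members stood toward the low end in ES-GFP+ relative to ES-GFP- cells. All 8 members with a value were lower in ES-GFP+ cells by more than the repeat-spot spread, against 18.3% of 18651 genes. *Slc6a4* and *Fev* were at least 4-fold lower, as were 1.75% of all genes (1.47% with the deposited values, where the same count of 2 members was found). The median log2 difference of the 8 members was -1.37, beside 0.26 for all genes. *Fev* was the 147th and *Slc6a4* the 225th lowest gene, and *Th*, the least different member, was the 2154th.

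Between MGE-GFP+ and ES-GFP- cells all 8 members were lower by more than the repeat-spot spread, against 34.3% of 17021 genes. At least 4-fold lower were *Tph2*, *Slc6a4*, *Fev*, *Lmx1b*, *Slc18a2* and *Maoa*, 6 of 8 members beside 6.78% of all genes. With the deposited values *Lmx1b*, at 3.50-fold, left this group, and the count was 5 of 8 beside 2.73%. The median of the members was -3.24 on the log2 scale and that of all genes -0.05. *Fev* was the 20th and *Tph2* the 24th lowest gene, and *Slc6a4*, whose difference is a bound here, was given no rank. This comparison uses the same MGE-GFP+ array on whose values *Tph2* was selected, so these counts and ranks describe the choice and support nothing further. *Ddc* and *Th* were only 1.78-fold and 1.53-fold lower.

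Between MGE-GFP+ and ES-GFP+ cells, the contrast from which *Tph2* was selected, *Tph2* and *Fev* ranked as the 16th and 121st lowest of 18576 genes, which is a description of the choice. With *Slc6a4*, whose difference is a bound, 3 of 8 members were at least 4-fold lower, beside 13.4% of all genes with the scanner intensities and 1.06% with the deposited values. Lower by more than the repeat-spot spread were 6 of 8 members and 48.4% of all genes, so in this comparison a modest decrease was common. The members' median was -1.56 and that of all genes -0.35.

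The balance of higher and lower genes turned on the scaling where the ES-GFP+ array took part. Of the genes at least 4-fold different between ES-GFP+ and ES-GFP- cells, 82.5% were higher in ES-GFP+ cells with the scanner intensities, 36.5% after quantile normalization and 25.6% with the deposited values. Of those between MGE-GFP+ and ES-GFP+ cells, 3.83%, 50.1% and 29.6% were higher in MGE-GFP+ cells. Relative to the median of all genes, *Tph2* was lower in ES-GFP+ than in ES-GFP- cells by a log2 difference of -1.35, *Slc6a4* by -2.52 and *Fev* by -2.84, while *Ddc* and *Th* were higher in MGE-GFP+ than in ES-GFP+ cells by 0.49 and 0.39. No difference of a member that passed the repeat-spot spread changed sign under the alternatives tried.

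**Figure D3:**
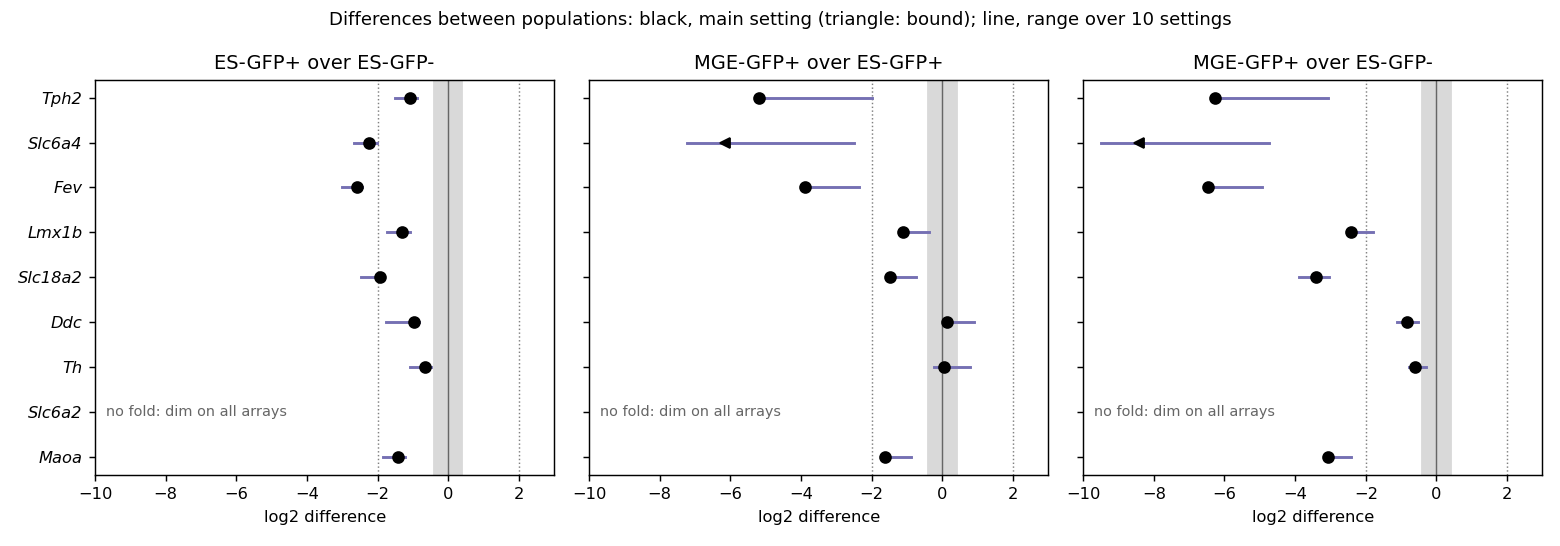
Log2 difference of each member (rows) in the 3 comparisons (panels), with the main setting in black, a triangle where it is a bound, and the range over 10 settings as a line. Grey bands show 2 SDs of a repeat-spot difference and dotted lines a 4-fold difference. In the left and right panels all 8 measured members lie below 0, and in the middle panel *Ddc* and *Th* lie inside the grey band.

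**Figure D4:**
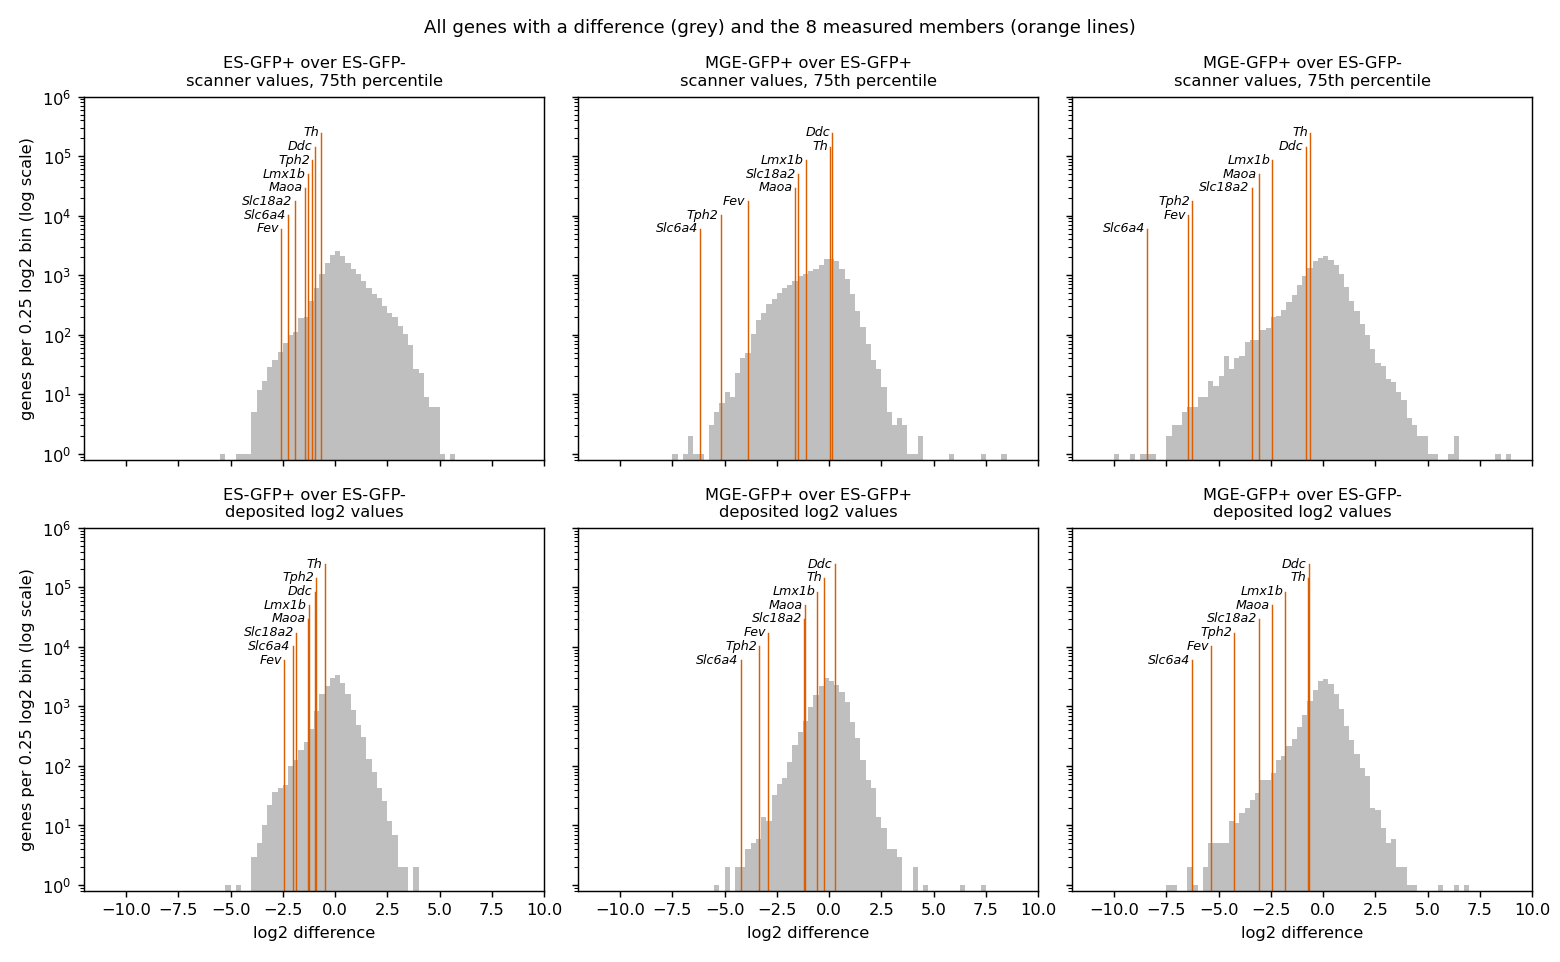
Number of genes per bin of log2 difference (grey, log scale) with the 8 measured members as orange lines, from the scanner intensities (upper row) and the deposited log2 values (lower row). The grey distribution is wider in each upper panel than in the panel under it, while *Slc6a4*, *Tph2* and *Fev* lie in the low tail of the MGE-GFP+ comparisons in both rows.

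Of 15 genes that handle serotonin, the members included, 14 had a value between the ES populations. Of these, 3 were at least 4-fold lower in ES-GFP+ than in ES-GFP- cells, beside 1.75% of all genes, and 0 were higher. All 15 had a value between MGE-GFP+ and ES-GFP- cells, and 8 were at least 4-fold lower in MGE-GFP+ cells, beside 6.78% of all genes. With the deposited values the count was 7, beside 2.73%. The 8 include the members *Tph2*, *Slc6a4*, *Slc18a2* and *Maoa*, and they rest on the array used for the selection, so this count supports nothing further. *Maob*, the second monoamine oxidase and the one that serotonin neurons themselves mainly hold, had the widest step of the list between the ES populations. It read 4788 in ES-GFP-, 385 in ES-GFP+ and 31.0 in MGE-GFP+ cells, an 11.0-fold and then a 9.54-fold difference. The MGE-GFP+ value of *Maob* was within the range of the control probes. Its step from ES-GFP+ to MGE-GFP+ cells was 3.42-fold with the deposited values. The log2 difference of that step ran from -3.25 to -0.95 over the settings tried. *Gch1*, which makes the first intermediate of the cofactor tetrahydrobiopterin, had a mean of 705 in ES-GFP- cells and of 129 in ES-GFP+ cells, and 18.3 in MGE-GFP+ cells. It was 4.38-fold lower in ES-GFP+ than in ES-GFP- cells, with a log2 difference that ran from -2.82 to -1.27 over the settings tried and so was not at least 4-fold in all of them, and within the range of the control probes in both GFP+ populations. *Gchfr*, the feedback regulator of *Gch1*, read 1887, 476 and 32.1, and *Slc22a3*, a low-affinity monoamine transporter, read 193, 65.1 and 2.68, within the control range on every array. *Tph1*, the tryptophan hydroxylase of gut and pineal gland, was within that range on all 3 arrays, at 29.6, 13.4 and 26.4. Of the tryptophan hydroxylases, *Tph2* alone exceeded the control probes on any array.

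The transcription factors of the serotonin lineage were mostly ordered in the same way. The exception was *Insm1*, a zinc-finger factor of many newborn neurons, which read 2325 in ES-GFP-, 678 in ES-GFP+ and 1043 in MGE-GFP+ cells. Of 11 listed, 4 were at least 4-fold lower in ES-GFP+ than in ES-GFP- cells, beside 1.75% of all genes. In MGE-GFP+ relative to ES-GFP- cells 8 were so, beside 6.78% of all genes, and 0 were 4-fold higher in either comparison. With the deposited values 6 were so in MGE-GFP+ cells, beside 2.73%. The 8 include the members *Fev* and *Lmx1b*, and *En1*, whose difference is a bound. They rest on the array used for the selection, so this count supports nothing further. The list's median log2 difference between ES-GFP+ and ES-GFP- cells was -1.74, against 0.26 over all genes. *Gata3* read 9762 in ES-GFP-, 2589 in ES-GFP+ and 4.02 in MGE-GFP+ cells, and *Gata2*, which acts upstream of it, 3083, 619 and 3.62. Both were at levels above the control probes in the 2 ES populations and not well above background in the MGE-GFP+ cells. *Nkx2-2*, a homeodomain factor of the ventral neural tube that marks serotonin progenitors, had a mean of 2100, 995 and 39.2. *Foxa2*, a factor of the floor plate, had a mean of 1621 in ES-GFP-, 201 in ES-GFP+ and 6.06 in MGE-GFP+ cells. *Nkx6-1*, another ventral progenitor factor, read 1792, 279 and 53.5. *Foxa2* and *Nkx6-1* were within the range of the control probes in both GFP+ populations. *En1*, a factor of the midbrain and anterior hindbrain, was within the control range throughout, at 95.5, 53.9 and 3.11.

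The receptors for serotonin were mostly within the range of the control probes, which 2 of 14 exceeded in ES-GFP- and 1 in MGE-GFP+ cells. None of 14 was at least 4-fold lower in ES-GFP+ than in ES-GFP- cells and 3 were at least 4-fold higher, where 8.25% of all genes were. On the ES-GFP+ array, however, 0 of the 14 exceeded the control probes, and with the deposited values 0 were 4-fold different. *Htr3b*, a subunit of the ionotropic receptor, read 114 in ES-GFP+ cells and was not well above background elsewhere. *Htr6* and *Htr1a* read 158 and 155 in ES-GFP+ and 22.5 and 23.9 in MGE-GFP+ cells.

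The genes that mark mature noradrenaline and dopamine neurons had low intensities. *Dbh*, which turns dopamine into noradrenaline, read 54.7 in ES-GFP-, 161 in ES-GFP+ and 22.8 in MGE-GFP+ cells, and *Slc6a3*, the dopamine transporter, 49.7, 95.8 and 18.3, all within the range of the control probes. *Pnmt*, which makes adrenaline, was above that range on each array, at 398, 394 and 471. Its levels differed by 1.12-fold between ES-GFP+ and ES-GFP- cells, within the repeat-spot spread. Of the 14 genes that handle catecholamines, 12 had a value between the ES populations. Beside 1.75% of all genes, 2 of these were at least 4-fold lower in ES-GFP+ cells, namely *Maob* and *Gch1*, which also serve serotonin, and 0 were higher.

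Of 10 noradrenergic transcription factors, 1 was at least 4-fold lower in ES-GFP+ than in ES-GFP- cells, beside 1.75% of all genes, and 0 were higher. In MGE-GFP+ cells 3 of 10 were at least 4-fold lower than in ES-GFP+ cells, beside 13.4% of all genes, and 4 of the 8 with a value were so relative to ES-GFP- cells, beside 6.78%. *Phox2a*, a homeodomain factor of noradrenergic neurons, was above the control probes in ES-GFP- cells alone, at 297 against 175 in ES-GFP+ and 42.9 in MGE-GFP+ cells. *Hand2*, required in sympathetic neurons, was within the control range on all 3 arrays, at 4.56, 25.5 and 5.38. *Gata2* and *Gata3*, described above, are on this list too.

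Of 10 transcription factors of midbrain dopamine neurons, 9 had a value between the ES populations. At least 4-fold lower in ES-GFP+ cells were 3 of the 9, beside 1.75% of all genes, and these were the floor-plate factors *Foxa1*, *Foxa2* and *Lmx1a*. *Lmx1a* read 4223, 541 and 60.8 in ES-GFP-, ES-GFP+ and MGE-GFP+ cells, and *Foxa1* 1831, 229 and 2.39. In ES-GFP+ cells *Foxa1* and *Foxa2* were within the range of the control probes. The log2 difference of *Foxa2* ran from -3.35 to -1.92 over the settings tried and so was not at least 4-fold in all of them. The factors that act later in dopamine neurons did not go with these floor-plate factors. *Pitx3* was within the control range on all arrays, at 24.7, 22.3 and 18.3. *Nr4a2*, the nuclear receptor Nurr1 that drives *Th* in these neurons, had means of 1799, 800 and 2973, and was 5.26-fold higher in MGE-GFP+ than in ES-GFP+ cells. It was the sole gene of the list at least 4-fold higher in that comparison.

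**Figure D5:**
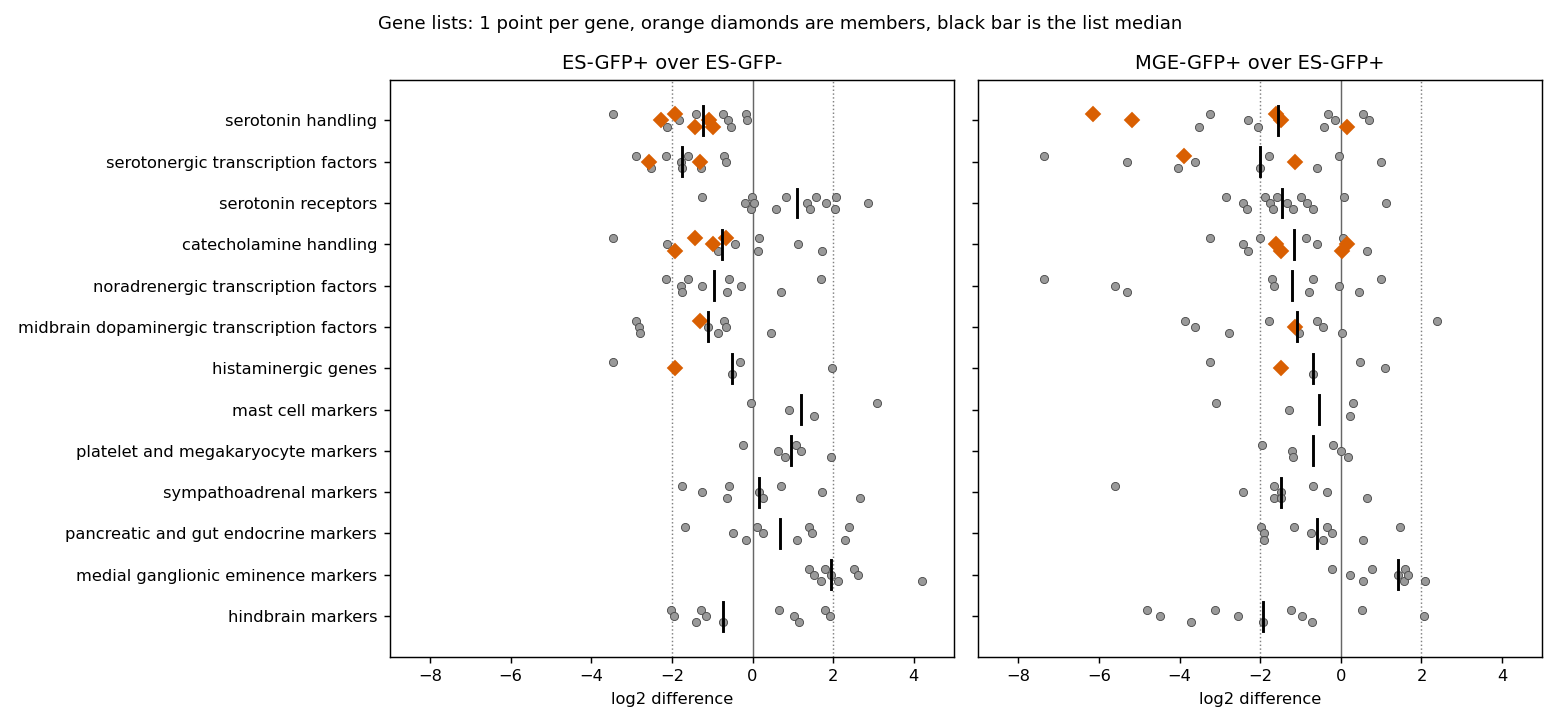
Log2 difference of each gene of 13 lists (points; members as orange diamonds, list medians as black bars) in ES-GFP+ over ES-GFP- (left) and MGE-GFP+ over ES-GFP+ cells (right), from the scanner intensities. Dotted lines mark a 4-fold difference. The medians of the lists for serotonin handling and serotonergic transcription factors lie below 0 in both panels, at -1.24 and -1.74 on the left, and that of the MGE markers lies above 0 in both.

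Other cells hold serotonin or monoamines, and their markers were examined on the same arrays. Of 8 mast cell markers, 7 had a probe, and *Cpa3*, *Ms4a2* and *Fcer1a*, which define the type, were not well above background on any array. *Tpsb2* and *Kit* alone exceeded the control probes, on all 3 arrays. The summed intensity of the list, in units of the 75th percentile, was 1.61 in ES-GFP-, 2.39 in ES-GFP+ and 2.59 in MGE-GFP+ cells. *Cma1* read 134 in ES-GFP+ cells, within the range of the control probes there. Of 8 platelet and megakaryocyte markers, *Ppbp* and *Gp9* were not well above background on any array, and the summed intensity was 2.16, 3.41 and 2.20 in the same order of arrays. Above the control probes were 4 of the 8 in ES-GFP-, 3 in ES-GFP+ and 3 in MGE-GFP+ cells. *Itgb3* was so on all 3 arrays, at 1016, 1431 and 690, and *Itga2b*, the integrin subunit that pairs with it on platelets, was so in the ES populations, at 265, 498 and 99.3. Their part in the results was not tested.

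Of the 10 pancreatic and gut endocrine markers, 0 were at least 4-fold lower in ES-GFP+ than in ES-GFP- cells, beside 1.75% of all genes. At least 4-fold higher were 2, beside 8.25% of all genes, and 1 with the deposited values. *Sst*, which MGE-derived interneurons also express, read 4528 in ES-GFP-, 19687 in ES-GFP+ and 9071 in MGE-GFP+ cells. The summed intensity of 9 sympathoadrenal markers was 31.2 in ES-GFP- cells, 11.9 in ES-GFP+ and 5.24 in MGE-GFP+ cells, an order like that of the members. Most of the sum was *Chgb*, a granin of many neuroendocrine cells and neurons, at 22109, 5891 and 1613. The list's median log2 difference in ES-GFP+ over ES-GFP- cells was 0.16. At least 4-fold lower were 0 of 9, beside 1.75% of all genes, and 1 was at least 4-fold higher, beside 8.25%. *Chrna3*, a nicotinic receptor subunit of autonomic ganglia, was within the control range on every array. Of 5 histaminergic genes, *Hdc*, the enzyme that makes histamine, was within that range on all 3 arrays.

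Markers of the hindbrain, where serotonin neurons arise, were in part ordered like the members. Above the control probes were 9 of 12 in ES-GFP- cells, 5 in ES-GFP+ and 3 in MGE-GFP+ cells. The 95th percentile of the control probes was highest on the ES-GFP+ array. The share of all genes above it is not given here, so these counts cannot be set beside one. Of 11 markers with a value, 1 was at least 4-fold lower in ES-GFP+ than in ES-GFP- cells, beside 1.75% of all genes, and 0 were higher. *Hoxb2* read 1108, 439 and 8.02 in ES-GFP-, ES-GFP+ and MGE-GFP+ cells, *Hoxb3* had means of 1052, 354 and 2.71, and *Hoxa2* read 906, 207 and 4.00. The ES-GFP+ value of *Hoxa2* was within the range of the control probes. *Gbx2* and *Fgf8*, which exceeded the control probes in MGE-GFP+ cells, are also used in the forebrain. The MGE markers ran the other way. *Lhx8* read 213, 3471 and 11295, and the markers' median log2 difference was 1.96 in ES-GFP+ over ES-GFP- cells, with 4 of 9 at least 4-fold higher beside the 8.25% of all genes given above. *Lhx6*, whose BAC reporter set the sorting gates, was 6.18-fold higher in ES-GFP+ than in ES-GFP- cells as the mean of its 3 probes, but the log2 difference ran from 0.05 to 2.65 over the settings tried.

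Among 12139 genes above the control probes on at least 1 array, those most like a member were taken as the 3 nearest by Euclidean distance of their log2 levels on the 3 arrays, each centered on its mean. For *Tph2* they were *Cnmd*, *Trap1a* and *Nkx2-2*, at distances of 0.03, 0.05 and 0.18. For *Slc6a4* they were *Gata2*, *Foxa1* and *Irx3*, and for *Fev* they included *Nid1* and *Sdc4*, at 0.21 and 0.24. With 3 arrays such a likeness rests on 3 values per gene. The levels entered as measured, without the floor used for bounds, and in MGE-GFP+ cells *Slc6a4*, *Gata2*, *Foxa1*, *Irx3*, *Cnmd*, *Trap1a* and *Sdc4* were not well above background, so that there the distances rest on values within background.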

How the data were processed

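Feature Extraction output of 3 one-color arrays was used, 1 per sorted population. The authors deposited spot intensities on a linear scale, background-subtracted by Agilent Feature Extraction (version 10.7.3.1 by the file headers) and not scaled between arrays. They also deposited a table of log2 values. Their scale was inferred: they lay at a median distance of 0.03 to 0.04 from log2 median intensities quantile normalized without background subtraction (largest distance 1.41), with column medians of 7.68 to 7.69. The labels name a smaller array format and another amplification kit than the paper. From the intensities, log2 minus each array's 75th percentile over 55681 mouse probes was computed in Python 3.11.15 (numpy 2.4.6, pandas 2.3.3). Flagged spots (98 to 137 per array) were left out, none was saturated, and repeat spots were averaged. A probe well above background on under 0.5 of its spots was raised to the array's lowest level among probes above background, which makes a fold a bound, and a gene is the mean of its probes. Control ranges used 10 E1A and 96 ERCC probes. Probes were named through RefSeq accessions. The procedure was tested on simulated data. limma 3.58.1 served for an alternative. With 1 array per group, genes at least 4-fold different were counted beside the share of all genes. The members, lists and alternatives were chosen with earlier results of these data known. Named were the members, a set of fixed pathway genes, up to 3 further genes per list with a log2 difference of at least 2, and the 3 nearest genes of *Tph2*, *Slc6a4* and *Fev*. Genes named as exceptions, as undetected or as above the control range were named after their values were seen. Some genes that this rule names are not reported here.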

Additional observations from a re-analysis of the deposited data

How the results depend on the processing

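Of 24 member differences recomputed under 9 alternatives, 123 of 216 values moved by no more than 1 SD of a repeat-spot difference, 93 moved by more, and 0 changed sign among those beyond 2 SDs. Counting members at least 2-fold instead of 4-fold lower gave 6 in place of 2 in ES-GFP+ relative to ES-GFP- cells and 6 in place of 3 in MGE-GFP+ relative to ES-GFP+ cells. Otherwise these counts were 2 or 3 in both, and in MGE-GFP+ relative to ES-GFP- cells they were 5 or 6 with every alternative. With the floor set at the 95th percentile of the control probes, *Tph2* was at least 3.96-fold lower in MGE-GFP+ than in ES-GFP+ cells, and its log2 difference ranged from -5.19 to -1.98 over all settings. That of *Slc6a4* ranged from -7.23 to -2.49 and that of *Fev* from -3.89 to -2.36. Among all genes, at least 4-fold lower were 110 to 906 (327 as reported) in ES-GFP+ relative to ES-GFP- cells, 117 to 3866 (2486) in MGE-GFP+ relative to ES-GFP+ cells and 351 to 1487 (1154) in MGE-GFP+ relative to ES-GFP- cells. At least 4-fold higher were 42 to 2676 (1538), 45 to 609 (99) and 134 to 495 (290). The planned normexp correction of mean intensities was not run because the files used here hold median intensities, and normexp on these, chosen after seeing the data, took its place. No paired analysis was possible because each population had 1 array.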
